A study of Homo sapiens with 10 samples.

Results

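The genes described here encode heat shock proteins and their J-domain co-chaperones. They were chosen by name, as the protein coding genes whose GENCODE symbol begins with HSPA, HSPB, HSPD, HSPE, HSPH, HSP90 or DNAJ. Of 76 such genes in GENCODE 44, 74 had a row among the 55841 genes of the count table, and 67 passed the filter on low counts that left 23552 tested genes. HSPE1-MOB4 and HSPB9 had no matching row and are not analysed here. By symbol the 74 comprised 14 HSPA, 9 HSPB, 3 HSP90, 4 DNAJA, 12 DNAJB and 29 DNAJC genes, with HSPD1, HSPE1 and HSPH1. Some entered by their symbol without being chaperones of the family, namely HSPBP1, a nucleotide exchange factor for HSPA proteins, HSPBAP1, and the readthrough genes DNAJC25-GNG10 and HSPB2-C11orf52, whose exons were 99.8% and 99.2% shared with other counted genes.

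RNA was sequenced from 10 libraries of a human embryonic stem cell line, HES9 in the labels and WA09 in the study's text, a difference not resolved here. The general population was left unsorted, while HHH is the fraction taken by flow sorting as highest for EPCAM, CD9 and GCTM-2, surface antigens by which the study isolates self-renewing cells. Both were grown in mTESR1 with matrigel, no label names a treatment, and the protein kinase C inhibitors of the design text were assigned to none of these libraries. Batch 1 held 2 general (replicates 1 and 2) and 2 HHH (replicates 2 and 3) libraries and batch 2 held 3 of each; what else set the batches apart is not stated. The model has limits. All libraries come from a line under 1 name, and the handling and the choice of cells cannot be told apart, because the general libraries are labelled as not sorted and it is not stated whether their cells were dissociated in the way the HHH cells were. Nothing states that replicates were separate cultures, so p-values measure only the spread between these samples, which may be technical. In bulk RNA, fewer cells of a type and less RNA per cell cannot be told apart.

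Total counts ran from 47242595 to 78503395 per library, and the 74 genes took 0.877% to 1.27% of them. Levels are given as CPM, the count relative to the TMM-scaled library size, and 3 counts, taken as the floor of detection for counting error only, stood for 0.0459 to 0.0686 CPM. All 10 pluripotent stem cell markers checked averaged at least 1 CPM, and none of 9 endoderm and mesoderm markers did. The summed level of 10 neural progenitor markers was 94.3 to 149 CPM in the general libraries and 36.2 to 49.5 CPM in HHH, mostly OTX2, and 3 of the 5 tested were lower in HHH. OTX2 is also among the post-implantation epiblast markers that the study reports in both populations. Summed fibroblast markers, 5 of 9 of which averaged at least 1 CPM, ran from 274 to 294 CPM in general and from 302 to 357 CPM in HHH, THY1 being higher and COL1A1 lower. As these genes moved in opposite directions, the sum is not read as fibroblast content. The part of these differences in the results below was not tested.

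Heat shock proteins bind unfolded or partly folded polypeptides and help them to fold, assemble or be degraded. The HSPA (HSP70) proteins do so in cycles of ATP hydrolysis that J-domain proteins (DNAJ) start and nucleotide exchange factors such as HSPH1 and HSPBP1 complete, HSP90 proteins act on late folding intermediates of kinases and receptors, the HSPD1-HSPE1 chamber folds proteins in mitochondria, and the small HSPB proteins hold aggregating proteins. Some members are made constantly, and others are induced by heat and proteotoxic stress through HSF1, which binds inverted repeats of the unit GAA in their promoters. Enzymatic dissociation and cell sorting are handling steps known to induce stress genes, and for this reason inducible and constitutive members were set side by side. A further group, including HSPA5 and HSP90B1, serves the endoplasmic reticulum (ER) and is induced by unfolded proteins there.

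The promoter sequences of 6 members on which the comparisons turn are shown. A window of 250 bases before the RefSeq gene start, on GRCh38.p14 and in the direction of the gene, was available for 66 of the 74 genes. Where a gene had more than 1 window, the window with the most matches to its motif is shown. HSPA1A (chr6:31815293-31815542, plus strand) stands for the heat-inducible HSP70 genes and HSPA8 (chr11:123062137-123062386, minus strand) for the constitutive ones, HSP90AA1 (chr14:102087045-102087294, minus strand, 1 of 2 windows) had the largest difference between batches, HSPD1 (chr2:197499841-197500090, minus strand, 1 of 2 windows) was higher in HHH of batch 2, HSPB8 (chr12:119178681-119178930, plus strand) was lower in HHH, and HSPA5 (chr9:125241344-125241593, minus strand) stands for the ER members. Capitals mark matches to the spelled motifs given after them, the three-unit heat shock element in HSP90AA1, HSPA8 and HSPD1, the two-unit form in HSPA1A and HSPB8, and the ER stress element in HSPA5.
HSPA1A: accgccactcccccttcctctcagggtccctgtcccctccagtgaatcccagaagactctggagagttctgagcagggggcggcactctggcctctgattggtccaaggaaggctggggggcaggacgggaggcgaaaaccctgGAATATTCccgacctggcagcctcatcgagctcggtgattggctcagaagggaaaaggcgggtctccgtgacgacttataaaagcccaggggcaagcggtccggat
HSP90AA1: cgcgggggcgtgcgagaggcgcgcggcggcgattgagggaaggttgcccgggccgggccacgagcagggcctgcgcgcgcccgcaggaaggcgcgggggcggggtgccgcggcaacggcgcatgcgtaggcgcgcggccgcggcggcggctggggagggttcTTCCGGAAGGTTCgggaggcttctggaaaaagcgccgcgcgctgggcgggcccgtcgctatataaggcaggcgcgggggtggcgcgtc
HSPA8: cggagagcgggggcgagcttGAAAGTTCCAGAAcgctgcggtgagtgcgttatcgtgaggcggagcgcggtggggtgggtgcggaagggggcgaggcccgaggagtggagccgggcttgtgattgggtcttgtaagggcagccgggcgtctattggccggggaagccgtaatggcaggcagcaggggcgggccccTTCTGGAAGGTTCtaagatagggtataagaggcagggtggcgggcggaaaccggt
HSPD1: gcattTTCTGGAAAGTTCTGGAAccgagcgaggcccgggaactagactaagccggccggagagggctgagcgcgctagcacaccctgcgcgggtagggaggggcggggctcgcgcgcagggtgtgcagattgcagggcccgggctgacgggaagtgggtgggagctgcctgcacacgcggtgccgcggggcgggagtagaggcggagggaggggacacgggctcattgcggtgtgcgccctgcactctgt
HSPB8: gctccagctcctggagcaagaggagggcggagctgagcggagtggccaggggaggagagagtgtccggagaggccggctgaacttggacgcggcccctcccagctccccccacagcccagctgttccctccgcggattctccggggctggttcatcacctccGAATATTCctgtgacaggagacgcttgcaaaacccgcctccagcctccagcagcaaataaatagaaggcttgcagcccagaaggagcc
HSPA5: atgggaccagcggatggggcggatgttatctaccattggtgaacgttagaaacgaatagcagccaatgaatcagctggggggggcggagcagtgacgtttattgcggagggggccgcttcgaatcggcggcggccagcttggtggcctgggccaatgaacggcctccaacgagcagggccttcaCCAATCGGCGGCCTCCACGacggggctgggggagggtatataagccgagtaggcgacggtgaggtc

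The two-unit form, GAANNTTC or TTCNNGAA on either strand, was present in windows of 20 of the 66 genes, beside 11.6% of all 35116 promoter windows of this length. It was found for 9 of 11 heat-inducible genes and for 2 of the 10 constitutive genes with a window. The three-unit form, GAANNTTCNNGAA or TTCNNGAANNTTC, which contains the two-unit form, was found in HSPA6, HSPD1, HSP90AA1, HSP90AB1, HSPA8 and DNAJB6, beside 0.441% of all windows. The ER stress element, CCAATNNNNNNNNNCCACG on either strand, was found in HSPA5 and HSP90B1, beside 0.074% of all windows. A gene counted here if any of its windows matched, and 15 of the 66 genes had several windows. The shares over all promoters are of single windows, so the 2 kinds of share are not strictly alike. These are matches of letters and not measured binding sites.

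The highest member per length was HSP90AB1, the constitutive cytosolic HSP90, at 725 CPM per kilobase of annotated exon, followed by HSPA8, the constitutive HSP70, at 522. HSP90AA1, HSPD1 and HSPA4 came next at 176, 148 and 128 CPM per kilobase, an order in which HSPD1 and HSP90AA1 change places in the deposited log2 RPKM values. In plain CPM the HSPA genes made up 37.6% and the HSP90 genes 32.01% of the summed level, against 0.602% for the 9 genes whose symbol starts with HSPB, HSPBP1, HSPBAP1 and the readthrough HSPB2-C11orf52 included. Strictly inducible genes were low. HSPA1A averaged 20.6 CPM and HSPA1B 29.5 CPM, and HSPA6, an HSP70 gene known for being silent without heat, had 0 to 5 counts in each library, 0 in every HHH library. HSPB3 had 0 counts in each library, which allows up to 3 counts or 0.0686 CPM. The 7 counted genes that were not tested, HSPA6, HSPB3, HSPB6, DNAJB8, DNAJB13, DNAJC5B and DNAJC5G, reached at most 0.317 CPM in any library.

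Averaged over the batches, sorted HHH cells differed little from the general population in these genes. Over both batches, 1 of 67 tested members passed (edgeR's quasi-likelihood test with batch as a term, adjusted p under 0.05), HSPB8, which was lower in HHH. Among all tested genes 5.83% passed, 1.94% higher and 3.89% lower. Of the members, 65 of 67 had a log2 fold change smaller than 0.5 in size and 61 had a 95% interval wholly within 1.5-fold of no change. Within batch 1 alone 45 of the 67 intervals were that narrow, and within batch 2 alone 58. A small value over both batches can also average opposite signs, as those of HSPA1A, HSPA1B and HSPA13 below. Their median log2 fold change was 0.069 beside 0.016 for all tested genes. Leaving out HHH batch 1 replicate 3 took the count from 1 to 5, with DNAJA2, DNAJC15, DNAJC25-GNG10 and HSPE1 then higher.

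None of the 10 tested heat-inducible genes passed over both batches, with 3 at an unadjusted p under 0.05, where 20.9% of all tested genes were, and DESeq2 and limma with voom called 0 as well. Their median log2 fold change was 0.076, the values running from -0.014 for DNAJB4 to 0.24 for HSPE1. None of the 11 constitutive genes passed either, with 3 at an unadjusted p under 0.05 and 0 called by either other tool, and their median was 0.11. The upper end of the 95% interval was at most 0.43 on the log2 scale in the inducible and 0.48 in the constitutive list. Leaving out HHH batch 1 replicate 3 brought 1 gene of each list past the test, HSPE1 and DNAJA2.

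HSPA1A and HSPA1B, neighbouring genes on chromosome 6 for the major stress-inducible HSP70, shared 69.5% and 72.8% of their 100-base stretches with transcripts of other genes, mostly each other, so their counts are uncertain individually. HSPA1A (chr6:31815543-31817946, GRCh38) stood at 19.1 and 18.4 CPM in the general and 23.6 and 26.7 CPM in the HHH libraries of batch 1, and at 19.0, 22.3 and 18.8 CPM in general and 20.7, 22.4 and 15.5 CPM in HHH of batch 2. HHH thus lay above general in batch 1 and overlapped it in batch 2. The log2 fold change was 0.42 ± 0.13 (SE) in batch 1 (adjusted p = 0.249) and -0.044 ± 0.13 in batch 2 (adjusted p = 0.848). HSPA1B (chr6:31827738-31830254) showed the same arrangement, with 30.5 and 31.8 CPM in general and 39.8 and 41.4 CPM in HHH of batch 1, and 26.0, 30.0 and 23.4 CPM against 25.9, 26.7 and 19.6 CPM in batch 2. The HSPA1B change on the log2 scale was 0.38 ± 0.12 in batch 1 (adjusted p = 0.234) and -0.15 ± 0.12 in batch 2 (adjusted p = 0.446). The difference of that change between batches, tested as an interaction, gave an adjusted p of 0.231 for HSPA1A and 0.171 for HSPA1B.

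HSPB1, the small heat shock protein HSP27, was at 14.99 and 17.3 CPM in general and 17.5 and 23.7 CPM in HHH of batch 1, while in batch 2 it was at 24.2, 25.1 and 32.4 CPM in general and 23.6, 24.6 and 23.5 CPM in HHH. The populations did not overlap in batch 1 and overlapped in batch 2, and neither difference passed (adjusted p = 0.455 and 0.240). DNAJB1, the J-domain partner of inducible HSP70, was at 77.5 and 74.6 CPM against 91.2 and 84.1 CPM in batch 1 and at 54.2, 58.6 and 54.2 CPM against 60.8, 58.1 and 60.7 CPM in batch 2. Its log2 fold change over both batches was 0.14 ± 0.063 (adjusted p = 0.206). DNAJB4 was lower in both HHH libraries of batch 1, at 12.6 and 12.7 CPM against 14.6 and 14.7 CPM, and overlapped in batch 2 (adjusted p = 0.952 over both). HSPH1, DNAJA1 and HSP90AA1 had log2 fold changes of 0.081, 0.070 and 0.044 over both batches, each with an adjusted p above 0.6.

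**Figure D1:**
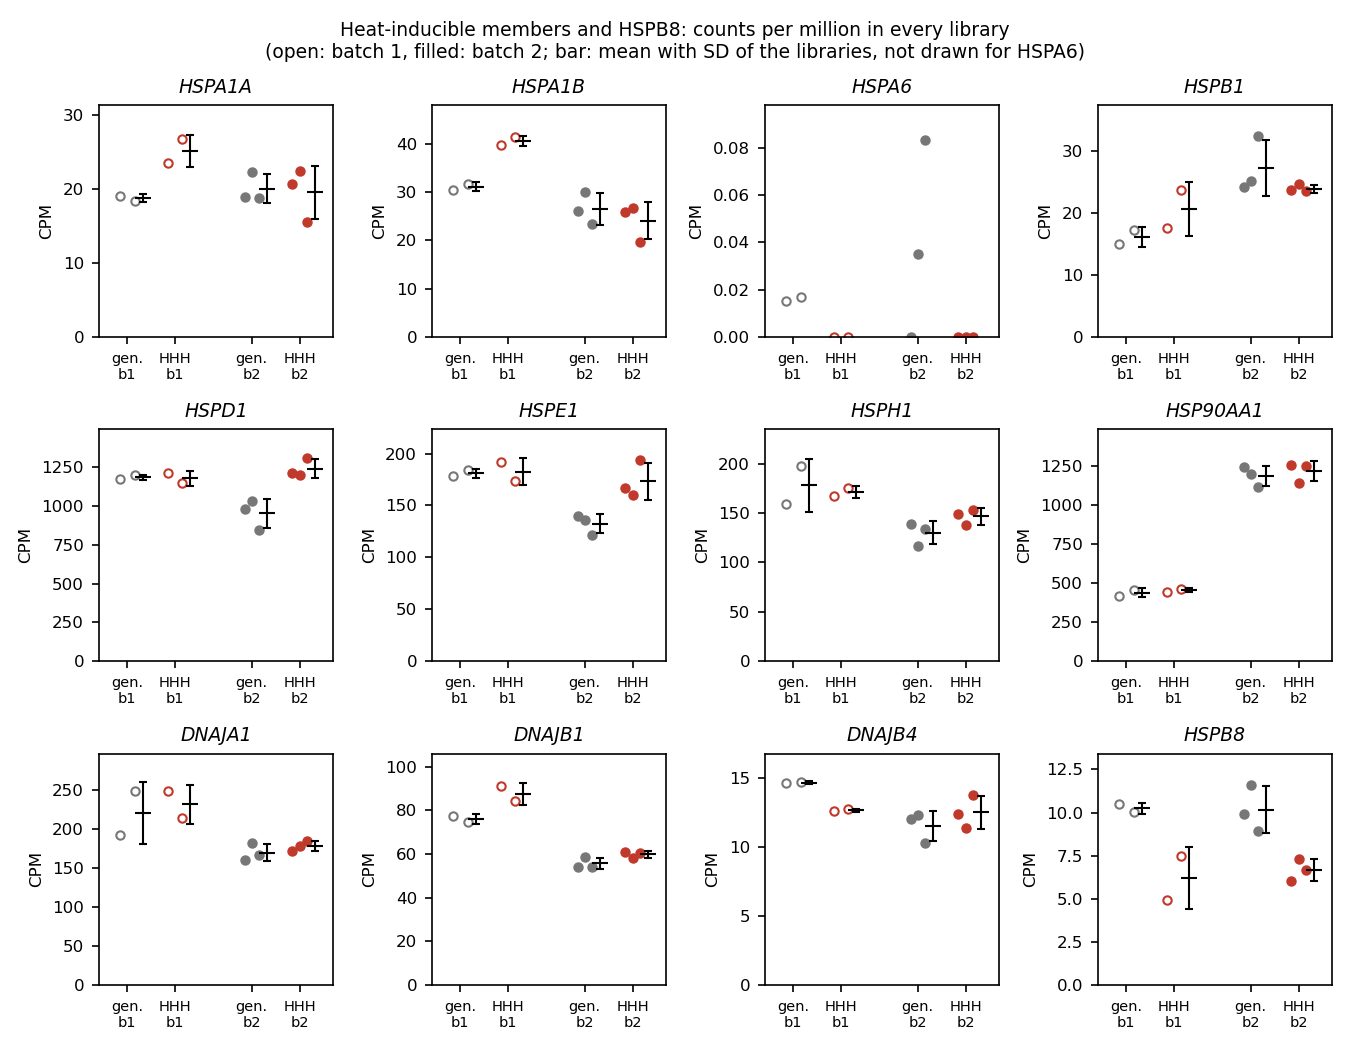
Levels in CPM (linear axes from 0) of the 11 heat-inducible genes and HSPB8 in each library, general in grey and HHH in red, with open points for batch 1, filled points for batch 2 and bars for the mean and SD of the 2 or 3 libraries. HSPB8 is lower in HHH in both batches, HSP90AA1 is near 445 CPM in batch 1 and 1199 CPM in batch 2, and HSPA1A and HSPA1B lie higher in HHH in batch 1 without passing the test.

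HSPB8, a small heat shock protein that works with BAG3 in the autophagic removal of misfolded proteins, was the member that fell over both batches. It lies on chr12:119171555-119224855 (GRCh38, plus strand). Its level was 10.5 and 10.02 CPM in general and 4.95 and 7.48 CPM in HHH of batch 1, and 9.94, 11.6 and 8.95 CPM in general and 6.02, 7.29 and 6.69 CPM in HHH of batch 2. Every HHH library was thus below every general library. The log2 fold change was -0.65 ± 0.12 (95% interval -0.90 to -0.40, adjusted p = 0.00385), a level 0.636 of that in general. By batch it was -0.72 ± 0.21 in batch 1, where it did not pass (adjusted p = 0.202), and -0.62 ± 0.12 in batch 2, where it did (adjusted p = 0.00547). The change did not differ detectably between batches (interaction 0.11, interval -0.39 to 0.62, adjusted p = 0.823). HSPB8 kept its direction and passed under all 19 alternatives run, with adjusted p-values from 1.43e-06 to 0.0492. Its promoter window holds 1 two-unit match, as does that of HSPA1A, and the part of this motif was not tested. BAG3, named here as its partner after the values were seen, had a log2 fold change of 0.023 (adjusted p = 0.938).

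Within batch 1 none of the 67 members passed, beside 0.633% of all tested genes, with 7 at an unadjusted p under 0.05, where 12.3% of all tested genes were, and 0 called by DESeq2 or by limma with voom. Without HHH batch 1 replicate 3 the count was 1, HSPB8. Of those 7, the 6 with higher values in HHH included HSPA1A and HSPA1B, with log2 fold changes from 0.36 to 0.55. The others were HSPA1L, HSPA12B, HSPBP1 and DNAJC5, named after their values were seen. In batch 2 the same 6 genes had values from -0.15 to -0.0098.

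Within batch 2 the count was 9 of 67, or 13.4%, beside 13.2% of all tested genes. Of these, 8 were higher in HHH, where 5.07% of all tested genes were, and 1 was lower, where 8.16% were. The 8 were the mitochondrial chaperonin genes HSPD1 and HSPE1, the mitochondrial J-domain gene DNAJC15, the cytosolic J-domain gene DNAJA2, the ER genes HSPA13 and DNAJC25 with the readthrough DNAJC25-GNG10, and HSPA4L, an HSP110-type exchange factor. HSPD1 and HSPE1 are on the heat-inducible list, so 2 of its 10 tested genes passed in batch 2, both higher in HHH. DNAJA2 was 1 of the 11 constitutive and HSPA13 1 of the 7 ER-stress inducible genes, and no other gene of these lists passed there. The count of 9 fell to 1, HSPB8, without general batch 2 replicate 1 or without general batch 2 replicate 3, and to 5 without HHH batch 2 replicate 1 or 2. With the further demand of a fold change over 1.5, met by 4.81% of all tested genes, only HSPB8 remained, and scaling by library size alone gave 5 higher and 2 lower.

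HSPD1 and HSPE1 form the folding chamber of the mitochondrial matrix and lie head to head on chromosome 2. HSPD1 (chr2:197486584-197516737) was at 1176 and 1199 CPM in general and 1216 and 1147 CPM in HHH of batch 1, where the populations overlapped. In batch 2 general stood at 979.9, 1031 and 849 CPM and HHH at 1213, 1202 and 1312 CPM. The log2 fold change in batch 2 was 0.37 ± 0.10 (adjusted p = 0.0327) and in batch 1 -0.010 ± 0.12 (adjusted p = 0.983), a difference that did not pass the interaction test (0.39, interval 0.061 to 0.72, adjusted p = 0.201). HSPE1 (chr2:197500140-197503449) moved alongside, from 139, 136 and 122 CPM in general to 167, 159.8 and 194 CPM in HHH of batch 2, a log2 fold change of 0.38 ± 0.095 (adjusted p = 0.0216). In batch 1 it was at 178 and 184 CPM against 192 and 174 CPM, with no separation. In both genes the batch 2 general libraries were the low ones of all 10, the HHH libraries of batch 2 lying near the levels of batch 1. Processed pseudogenes named after HSPD1 and HSPE1 took counts equal to 29.4% and 38.9% of those of the parents, so some reads of these genes may be placed on copies.

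HSPA13, an ER-associated HSP70 relative, was at 114 and 117 CPM in general and 108 and 97.0 CPM in HHH of batch 1, and at 64.1, 73.5 and 57.7 CPM in general and 85.4, 80.5 and 99.5 CPM in HHH of batch 2. HHH was below general in every library of batch 1 and above it in every library of batch 2. The change of HSPA13 on the log2 scale was -0.17 ± 0.11 (adjusted p = 0.567) in batch 1 and 0.43 ± 0.10 (adjusted p = 0.0184) in batch 2, and the interaction, at 0.61, was the largest of all members and did not pass (adjusted p = 0.0982). DNAJA2 rose from 163, 183 and 158 CPM to 206, 206 and 232 CPM in batch 2, by 0.34 ± 0.091 on the log2 scale (adjusted p = 0.0269). DNAJC15, which acts at the inner membrane import channel, rose from 15.1, 16.7 and 13.8 CPM to 18.1, 18.3 and 21.0 CPM, by 0.32 ± 0.097 (adjusted p = 0.0448). The changes of DNAJC25, DNAJC25-GNG10 and HSPA4L in batch 2 were 0.35, 0.44 and 0.31, and the readthrough cannot be told from its parts. The readthrough, at 1.35-fold, and HSPA13, also at 1.35-fold, had the largest of these rises.

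No member passed the interaction of batch and population, beside 0.777% of all tested genes, with 15 members at an unadjusted p under 0.05, where 18.9% of all tested genes were. Limma with voom called 0 and DESeq2 called 1, HSPA13, as did the fit without a filter on low counts, together with DNAJC25-GNG10. The 95% intervals of 30 of the 67 lay within 1.5-fold, so for the rest a difference of that size between batches was not excluded.

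**Figure D2:**
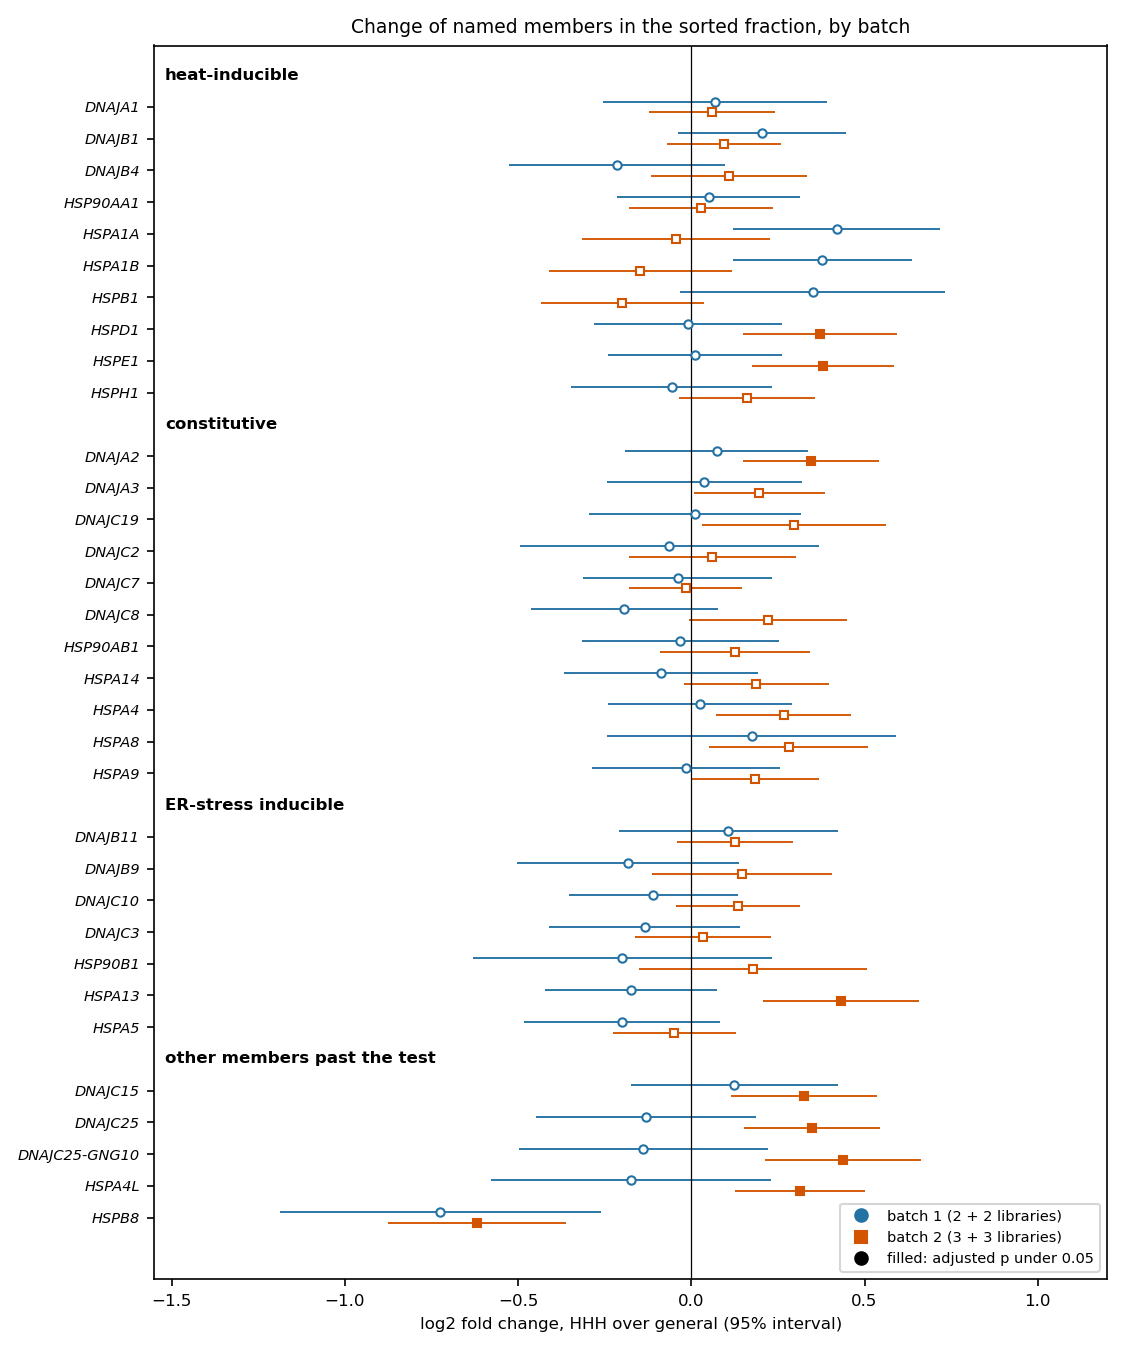
Log2 fold change of HHH over general with 95% intervals, for the tested heat-inducible, constitutive and ER-stress inducible genes and other members past the test, in batch 1 (blue circles) and batch 2 (orange squares), filled where the adjusted p was under 0.05. HSPB8 lies at -0.72 and -0.62, while the 8 higher members of batch 2 lie between 0.31 and 0.44.

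The constitutive genes gave the reference for the inducible ones. HSPA8 was at 2778 and 3596 CPM in general and 4198 and 3010.3 CPM in HHH of batch 1, with overlap, and at 1797, 1801 and 1681 CPM against 2144, 1941 and 2378 CPM in batch 2, without overlap. Its log2 fold change over both batches was 0.25 ± 0.11 (interval 0.016 to 0.48, adjusted p = 0.210). HSP90AB1 overlapped in batch 1 and was higher in every HHH library of batch 2, at 1989.9 and 2162 CPM against 2004 and 2065 CPM in batch 1 and at 2182, 2102 and 2098 CPM against 2333, 2193 and 2490.4 CPM in batch 2 (0.070 ± 0.077, adjusted p = 0.646). HSPA4, the cytosolic exchange factor of the HSP110 type, had 0.18 ± 0.076 (adjusted p = 0.203), with HHH above general in every library of batch 2 and overlap in batch 1. DNAJA3, DNAJC19, DNAJC2, DNAJC7, DNAJC8, HSPA14 and HSPA9, which serve mitochondria, ribosomes, HSP90 and splicing, had log2 fold changes from -0.018 to 0.19.

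Within batch 1 the median log2 fold change was 0.059 for the inducible and -0.015 for the constitutive list, beside 0.0043 for all tested genes, and within batch 2 it was 0.076 and 0.20, beside -0.0063. The inducible median thus stood above the constitutive one in batch 1 and below it in batch 2. Ratios of an inducible gene to a constitutive counterpart within a library, which do not depend on the scaling, were compared as descriptions. The log2 ratio of HSPA1A to HSPA8 was -7.18 and -7.61 in general and -7.48 and -6.82 in HHH of batch 1, and -6.57, -6.33 and -6.48 in general and -6.70, -6.43 and -7.26 in HHH of batch 2. The populations overlapped in both batches, with mean differences of 0.25 and -0.34. HSPA1B to HSPA8 gave mean differences of 0.21 and -0.43, and DNAJB1 to DNAJA2 gave 0.13 and -0.25. In batch 2 all HHH values of both these ratios were below those of general, and in batch 1 both HHH values of DNAJB1 to DNAJA2 were above. The ratio of HSPA5, an ER-stress inducible gene, to HSPA8 was lower in every HHH library than in every general library of its batch, with mean differences of -0.36 in batch 1 and -0.33 in batch 2. The reference genes moved as well. In batch 2 the log2 fold change was 0.34 for DNAJA2 and 0.094 for DNAJB1. HSPA8 was higher in every HHH library of batch 2, where the populations overlapped for HSPA5 in CPM. A lower ratio therefore does not mean a lower level of the inducible gene.

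**Figure D3:**
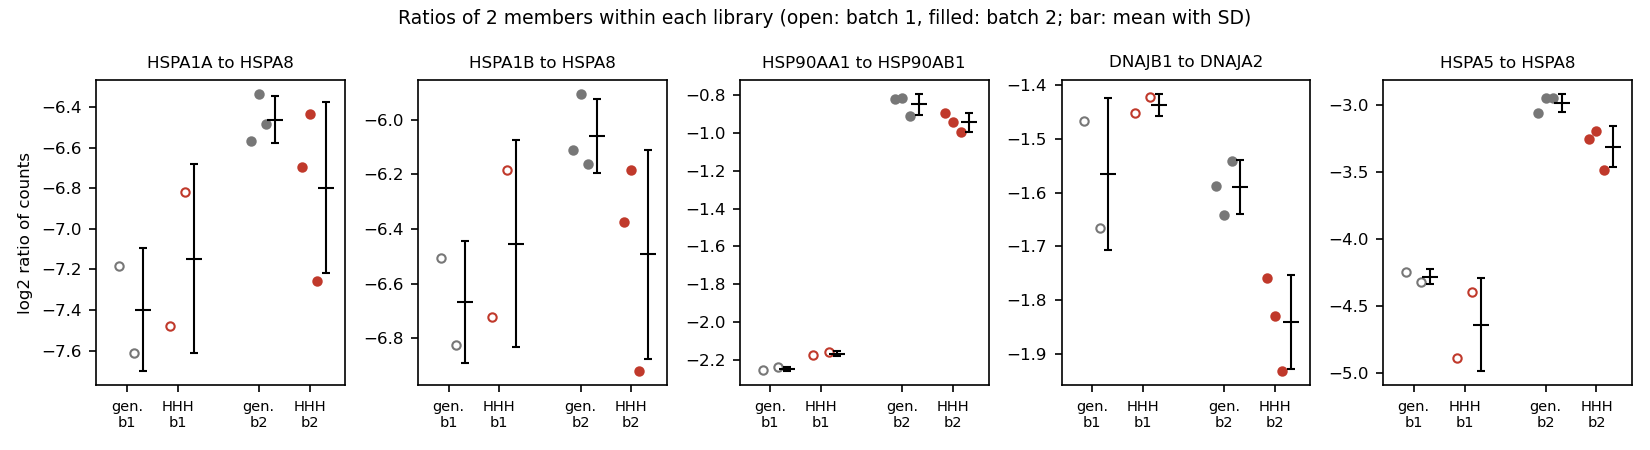
Log2 ratios of the counts of 2 members within each library, general in grey and HHH in red, open for batch 1 and filled for batch 2, with the mean and SD of each set. The HSP90AA1 to HSP90AB1 ratio averages -2.21 in batch 1 and -0.90 in batch 2, a larger step than any between HHH and general.

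None of the 7 ER-stress inducible genes passed over both batches, with 0 at an unadjusted p under 0.05 and 0 called by DESeq2 or limma with voom. Their median log2 fold change was -0.17 in batch 1, with 6 of 7 values below 0, beside 0.0043 for all tested genes. In batch 2 it was 0.13, with 6 of 7 above 0, beside -0.0063. All 7 interaction values were positive, and none passed. This sign was not particular to these genes. It was also that of all 11 constitutive genes and of 44 of the 67 members, but of only 4 of the 10 heat-inducible genes. HSPA5 (BiP), the main HSP70 of the ER, was at 147 and 181 CPM against 142 and 143 CPM in batch 1 and at 215, 234 and 218 CPM against 225, 213 and 213 CPM in batch 2 (-0.10 ± 0.075, adjusted p = 0.466). HSP90B1 (GRP94) was at 279 and 449 CPM against 304 and 331 CPM and at 681, 420.5 and 661 CPM against 674, 624 and 710.0 CPM, with general batch 2 replicate 2 well below the other libraries of its batch. Its log2 fold change was 0.035 ± 0.15 (adjusted p = 0.922). DNAJB9, DNAJB11, DNAJC3 and DNAJC10, J-domain partners of HSPA5, had values from -0.027 to 0.13, and HSPA13 had 0.20.

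The batches differed far more than the populations. Between batch 2 and batch 1, with population as a term, 41 of 67 members passed, or 61.2%, beside 47.9% of all tested genes. Of these 19 were higher in batch 2, beside 24% of all tested genes, and 22 lower, beside 23.9%. Scaling by library size alone, which moved the median of all genes from 0.0036 to 0.34 on the log2 scale, turned this split into 35 higher and 4 lower, so small differences between batches depend on the scaling. Of the members, 8 also exceeded 1.5-fold, beside 21.5% of all tested genes. Batch also moved with the share of counts on genes without a GENCODE 44 match, 16.3% to 20.3% in batch 1 and 7.44% to 10.6% in batch 2, and of small nuclear, nucleolar and mitochondrial genes, 3.04% to 5.20% and 0.825% to 1.04%. Their part in the differences between batches was not tested.

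HSP90AA1, the inducible cytosolic HSP90 (chr14:102080742-102139699), differed most. It was at 416, 458, 443 and 463 CPM in the 4 libraries of batch 1 and at 1238, 1195, 1116, 1255, 1141.5 and 1249 CPM in the 6 of batch 2, with no overlap and no difference by population. The log2 difference was 1.43 ± 0.077 (adjusted p = 8.45e-09), or 2.70-fold, while HSP90AB1, its constitutive paralog, differed by 0.12 ± 0.079 (adjusted p = 0.237). Its annotated transcripts shared 1.31% of their 100-base stretches with other genes, and the counts on its pseudogenes were 10.4% to 11.5% of its own in batch 1 and 10.5% to 11.1% in batch 2. HSPA8 (chr11:123057489-123063230) went the other way, from 2778 to 4198 CPM in batch 1 to between 1681 and 2378 CPM in batch 2 (-0.80 ± 0.11, adjusted p = 4.81e-05). Small nucleolar RNA genes inside it, named after their values were seen, were lower in batch 2 as well, SNORD14C by -1.86, SNORD14D by -1.99 and SNORD14E by -1.66 on the log2 scale, and their part was not tested. Small nuclear, nucleolar and mitochondrial genes as a whole also took less of the counts in batch 2. Their share was 3.04% to 5.20% in batch 1 and 0.825% to 1.04% in batch 2, so these falls are not particular to HSPA8. HSP90AA1 and HSPA8 hold the three-unit heat shock element in their promoter windows, and so do HSPD1 and HSP90AB1, whose differences between batches did not pass. DNAJB6 holds it too and was lower in batch 2 (-0.26 on the log2 scale, adjusted p = 0.0124), and HSPA6 was not tested. The part of this element was not tested.

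ER genes were split as well. HSPA5 and HSP90B1 were higher in batch 2 by 0.52 ± 0.077 and 0.88 ± 0.15 on the log2 scale (adjusted p = 0.0001 and 0.00038), with no overlap of batches for HSPA5 and an overlap for HSP90B1. The other 5 ER-stress inducible genes were all lower in batch 2 and passed, DNAJB9 by the most. DNAJB9 stood at 21.9 to 29.3 CPM in batch 1 and 13.5 to 19.9 CPM in batch 2 (-0.68 ± 0.11, adjusted p = 0.00022). Among the 10 tested heat-inducible genes 2 were higher in batch 2, HSP90AA1 and HSPB1 (0.48 ± 0.13), and 5 were lower, HSPA1B (-0.50 ± 0.12), DNAJB1 (-0.50 ± 0.064), DNAJA1, HSPH1 and HSPE1. Neither inducible group therefore moved in 1 direction between batches. HSPA12B, a divergent HSP70 relative named after its values were seen, rose from 2.30 to 3.84 CPM in batch 1 to between 5.30 and 7.10 CPM in batch 2 (1.14 ± 0.14, adjusted p = 1.77e-05).

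**Figure D4:**
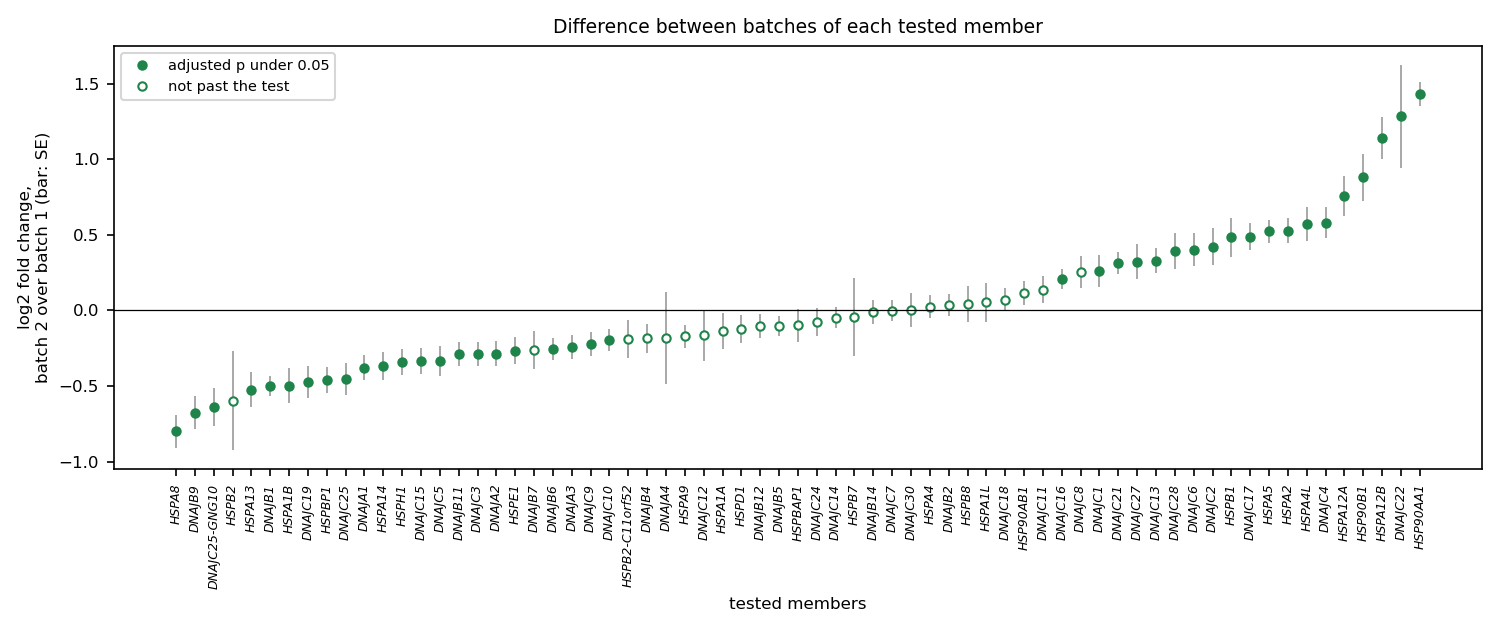
Log2 fold change of batch 2 over batch 1 for the 67 tested members in rising order, with SE bars, filled where the adjusted p was under 0.05. HSPA8 is lowest at -0.80 and HSP90AA1 highest at 1.43, and 41 members are filled.

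Other genes of the pathway were examined beside the family. HSF1, the regulator of the heat shock response, named after its values were seen, was at 45.2 and 47.1 CPM against 58.2 and 61.2 CPM in batch 1 and at 46.6, 49.0 and 48.7 CPM against 43.8, 43.0 and 35.1 CPM in batch 2 (0.0020 ± 0.11 over both, adjusted p = 0.995). For HSF1, every HHH library lay above general in batch 1 and below it in batch 2. The value over both batches thus averages opposite signs and does not show that HSF1 was unchanged. None of the 28 tested genes of its list, HSF genes and co-chaperones, passed the interaction test (smallest adjusted p = 0.066). None passed in batch 1 alone either (smallest adjusted p = 0.223), so a change of direction was not established. None of the 8 subunit genes of the cytosolic chaperonin TRiC passed over both batches, with 1 at an unadjusted p under 0.05, CCT5, and all 8 values lay between 0.084 and 0.18. By batch, their median log2 fold change was -0.0061 in batch 1, with 5 of 8 values below 0, and 0.22 in batch 2, with all 8 above 0. None passed within a batch. Of 19 genes of the unfolded protein response, 1 passed over both batches, beside 5.83% of all tested genes. It was SDF2L1, an ER co-chaperone, higher by 0.45 ± 0.10 (adjusted p = 0.0198).

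Immediate early genes, which are known to respond to tissue dissociation within minutes, moved in both directions. Of 22 tested, 2 were higher and 5 lower in HHH over both batches, beside the 1.94% and 3.89% of all genes given above. In batch 1, 2 were higher and 0 lower, beside 0.633% of all tested genes in either direction. In batch 2, 1 was higher and 6 lower, beside 5.07% and 8.16% of all tested genes. JUND, named after its values were seen, was higher in batch 1 (0.87, adjusted p = 0.0266) and was the 1 gene of the list that passed the interaction (-1.17, adjusted p = 0.00608). IER3 was higher by 0.74 ± 0.077 (adjusted p = 4.32e-05), while EGR1, EGR2 and EGR3 were lower by values of -1.19, -1.12 and -1.95 (adjusted p = 0.000288, 0.00094 and 0.00116). EGR1 was at 5.91 and 6.45 CPM in general and 4.24 and 3.45 CPM in HHH of batch 1, and at 14.8, 14.0 and 19.8 CPM in general and 6.21, 5.41 and 5.65 CPM in HHH of batch 2.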

How the data were processed

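RNA of 10 libraries of a human embryonic stem cell line was sequenced after TruSeq preparation. The raw count table, which the authors deposited, gives whole read counts per gene. The log2 values (unit score) that the authors deposited are TMM-scaled log2 RPKM from which the batch term had already been subtracted, and they served as an alternative and for 1 ranking. Per the labels' processing notes the build was GRCh37; the aligner and the counter are not given in the sources used here. Symbols and coordinates came from GENCODE 44 (GRCh38), which matched 88.5% of identifiers and 94.0% of tested ones, and promoter sequences from RefSeq. Strandedness of counting is not stated, so overlapping and antisense genes are uncertain.

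Counts were tested with edgeR 4.0.16 in R 4.3.3 (quasi-likelihood F test, TMM, filterByExpr with a minimum count of 10, Benjamini-Hochberg adjustment over 23552 genes, threshold 0.05). The comparisons were HHH against general over both batches with batch as a term, within each batch, their interaction, and batch 2 against batch 1. Alternatives included DESeq2 1.42.0 and limma 3.58.1, and the fits were tested on simulated data. Standard errors are the log2 fold change over the root of F. The main fits did not pair samples. Pairing by replicate number was run only as an alternative, the replicate block. It was included because all 4 same-numbered pairs of general and HHH samples of a batch deviated together, with correlations from 0.113 to 0.239. This is a hint from the data, and weak in batch 1, where centring 2 samples fixes the size of the correlation and a pair of unlike numbers also had 0.113. Members and lists were chosen with earlier results of these data known. Genes named were the members of the heat-inducible, constitutive and ER-stress lists, every member past the test over both batches, in a batch or for the interaction, the 5 highest per length, and the 4 genes of lowest p in each other list; exceptions are said. A result among the co-chaperones outside the family is not reported here.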

Additional observations from a re-analysis of the deposited data

Results flagged for a closer look

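HSPA1A in general batch 2 replicate 2 stood at 22.3 CPM, apart from the other 4 general libraries, the nearest of which was at 19.1 CPM, by 0.814 of the range of the group. HSPB1 in HHH batch 1 replicate 2 stood at 17.5 CPM, below the other 4 HHH libraries, the nearest at 23.5 CPM, by 0.837 of the range. The critical value for 5 samples is 0.71. These were 2 of 66 groups examined, and chance marks about 1 group in 20. No difference between groups of samples is among them.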

How the results depend on the processing

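The count of members past the test over both batches was 1 under every alternative except leaving out HHH batch 1 replicate 3, with 1 to 5 when a library was left out. In batch 1 it was 1 with no filter on low counts and 0 to 1 with a library left out. In batch 2, where the main count was 9, it was 1 when a fold change over 1.5 was also asked, 1 to 8 with a library left out, 7 to 12 under other scalings and tools. The interaction gave 2 with no filter and 1 with DESeq2. Between batches the count of 41 became 8 with the fold demand, 34 to 41 with a library left out. With the replicate block the counts were 1 over both batches and 9 in batch 2, the same genes, and no call changed.

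Values near 0 turned sign, none of them past the test, and the cause was not tested. With library size only, DNAJB9 was -0.016, DNAJC2 -0.026, HSP90B1 -0.012 and HSPB1 -0.013. With the replicate block DNAJB4 was 0.032, DNAJC2 -0.031, HSPA1B -0.025 and HSPB1 -0.13. With no batch term DNAJB9 was -0.018 and HSPB1 -0.013. With limma on the deposited log2 values, where the median of all genes was -0.12, the values were DNAJA1 -0.065, DNAJA3 -0.0025, DNAJB11 -0.011, DNAJB9 -0.12, DNAJC10 -0.094, DNAJC2 -0.096, DNAJC8 -0.078, HSP90AA1 -0.094, HSP90AB1 -0.069, HSP90B1 -0.070, HSPA14 -0.060, HSPA1B -0.072, HSPA4L -0.0096, HSPA9 -0.026, HSPB1 -0.11 and HSPH1 -0.052. With a library left out the ranges were DNAJB4 -0.080 to 0.021, DNAJB9 -0.061 to 0.098, DNAJC2 -0.062 to 0.14, DNAJC3 -0.084 to 0.0071, DNAJC7 -0.056 to 0.028, DNAJC8 -0.029 to 0.13, HSP90B1 -0.091 to 0.19 and HSPB1 -0.095 to 0.13. With 2 or 3 libraries a group, differences under 1.5-fold within a batch were often not detectable.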
